A study of Mus musculus with 37 samples.

Results

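Genes of inhibitory signalling were followed in the adult mouse hippocampus after loss of the histone demethylase Kdm1a from forebrain excitatory neurons. The set held 32 of the 48795 genes in the count table. It was chosen by name and role, with earlier results of these data known. It comprised 12 subunits of the GABA-A receptor, 2 of the GABA-B receptor and 4 of the glycine receptor. The others were the scaffold gene Gphn, 3 genes for making GABA and loading it into vesicles, and 10 interneuron markers. Poly-A RNA was sequenced from whole hippocampi of 3 Kdm1a-ifKO males and 3 control littermates, 1 mouse per library. Kdm1a-ifKO mice carried Kdm1a f/f alleles, with loxP sites around exons 5 and 6, together with Camk2a-creERT2, and control littermates lacked the Cre. All were C57BL/6J and received tamoxifen, given at 8 weeks of age; the age at RNA collection is not given in the sources used here. The Camk2a promoter drives Cre in principal forebrain neurons and not in GABAergic interneurons, so the allele was meant to stay intact in the cells that make most transcripts of the interneuron markers. A further sample, 1 CTCF ChIA-PET library, was used for chromatin loops. Its nuclei were sorted from hippocampal excitatory neurons of tamoxifen-treated mice with an intact Kdm1a gene, labelled WT. The study's methods describe such sorting from 12-week-old Camk2a-creERT2 x CAG-Sun1/sfGFP mice, so these mice, unlike the control littermates of the RNA libraries, carry the Cre and a nuclear tag.

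GABA-A receptors are pentameric chloride channels whose subunit mix sets where they sit and how they respond, GABA-B receptors are G-protein-coupled dimers, and glycine receptors are chloride channels of the same superfamily as GABA-A receptors. Gephyrin, the product of Gphn, gathers glycine receptors and many GABA-A receptors at inhibitory synapses. In the hippocampus GABA comes mostly from local interneurons, whose classes are told apart by the peptides and calcium-binding proteins they make, and principal neurons carry most of the GABA-A receptors that receive it.

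The libraries held between 18985542 and 19469947 counts each. Kdm1a itself lay between 79.5 and 81.1 CPM (counts scaled to library size) in the controls and between 36.9 and 39.3 CPM in the Kdm1a-ifKOs (log2FC -1.07 ± 0.056 SE, edgeR adjusted p = 6.24e-08). The first principal component (50.0% of the variance) separated the genotypes, and the second (16.9%) separated 2 libraries, control replicate 3 and Kdm1a-ifKO replicate 2, from all others, so results that rest on these libraries are given with and without them. Because tissue was sequenced in bulk, fewer cells of a type and less RNA per cell cannot be told apart at any gene below.

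A pair of subunit genes of the GABA-A receptor gave the widest changes of the set, and they lie close together on the X chromosome with another subunit gene between them. In the coordinates of mm10, Gabre (epsilon subunit) spans chrX:72255999-72274803 on the minus strand, Gabra3 (alpha 3 subunit) chrX:72432681-72656848 on the minus strand, and Gabrq (theta subunit) chrX:72825178-72842602 on the plus strand. The whole stretch is 586.6 kb long, with 157.9 kb from Gabre to Gabra3 and 168.3 kb from Gabra3 to Gabrq. The bases upstream of the 3 starts differ in their content of CpG dinucleotides, and are shown for that reason. Each run below comes from the 250 bases before a RefSeq start (GRCm38.p6), 5' to 3' on the gene's own strand, with every CpG in capitals. The RefSeq start of Gabre lies inside the GENCODE gene, so the last 82 bases of its window are left out of the run and 168 are shown; the others are shown whole.
Gabre upstream, chrX:72274804-72274971, minus strand: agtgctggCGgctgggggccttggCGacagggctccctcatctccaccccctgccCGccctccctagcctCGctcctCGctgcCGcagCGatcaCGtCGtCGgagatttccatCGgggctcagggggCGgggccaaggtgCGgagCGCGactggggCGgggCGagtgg
Gabra3 upstream, chrX:72656920-72657169, minus strand: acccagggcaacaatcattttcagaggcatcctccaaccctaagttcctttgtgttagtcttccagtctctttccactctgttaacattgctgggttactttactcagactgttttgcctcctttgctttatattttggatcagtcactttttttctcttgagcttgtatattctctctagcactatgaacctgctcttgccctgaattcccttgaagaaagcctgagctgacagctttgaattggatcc
Gabrq upstream, chrX:72824928-72825177, plus strand: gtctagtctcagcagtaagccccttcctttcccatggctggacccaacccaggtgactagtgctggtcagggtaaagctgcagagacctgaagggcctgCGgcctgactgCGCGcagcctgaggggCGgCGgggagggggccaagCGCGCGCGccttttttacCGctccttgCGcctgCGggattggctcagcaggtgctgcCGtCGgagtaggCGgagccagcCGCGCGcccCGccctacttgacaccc

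The 250-base window of Gabre holds 21 CpGs, 17 of them in the run shown, and that of Gabrq 19, a number reached by 19.7% of the 32851 promoter windows in the RefSeq table. The Gabra3 window holds 0 CpGs, as do 7.87% of windows, and the window of its other listed start holds 0 as well. The median window has 6. CpG number did not order the members by direction: among those that fell, described further on, the windows of Glrb and Npy hold 20 and 21 CpGs and those of Glra2 and Vip 8 and 3. Among the 11986 tested genes with a window, the median CpG number (taking each gene's richest window) was 15 for the genes that rose, 17 for those that fell and 16 over all. Windows were found for 29 of the 32 members, and Gabrd, Glra1 and Calb2 had none.

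Gabre was close to silent in control hippocampus, with 6, 7 and 6 counts in the 3 control libraries, and had 46, 52 and 36 in the Kdm1a-ifKOs. No Kdm1a-ifKO library came near a control library. The difference was a log2FC of 2.75 ± 0.296 (SE, 95% confidence interval 2.11 to 3.39; edgeR adjusted p = 5.5e-05), which is 6.72-fold. Gabrq had 11, 15 and 8 counts in the controls and 28, 42 and 34 in the Kdm1a-ifKOs, again without overlap. Its log2FC was 1.56 ± 0.3 (95% confidence interval 0.91 to 2.2, adjusted p = 0.0057). In both cases the level reached stayed low: per exon length, Gabre went from a mean of 0.281 to 1.93 TPM (counts divided by exon length and scaled to the same total in each library) and Gabrq from 0.444 to 1.32 TPM. A pair of microRNA genes overlap Gabre on its own strand, and their part in its counts was not tested.

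Gabra3, between the other two, was a well-expressed gene and did not pass the test. It had 85.5, 92.7 and 83.7 CPM in the controls and 74.8, 82.3 and 60.1 CPM in the Kdm1a-ifKOs, so every Kdm1a-ifKO library lay below every control library, by a small margin for replicate 2. The log2FC was -0.27 ± 0.104 (95% confidence interval -0.51 to -0.03, adjusted p = 0.156). Without control replicate 3 and Kdm1a-ifKO replicate 2 it was -0.4, with an adjusted p of 0.0348. Without Kdm1a-ifKO replicate 3, the lowest library, it was -0.15 (adjusted p = 0.274), and after a correction for GC content and gene length -0.22 (0.257). Gabra3 was called in 5 of the 15 alternative fits. The only other protein-coding gene in the stretch, Magea10, had 0 counts in all libraries.

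**Figure D1:**
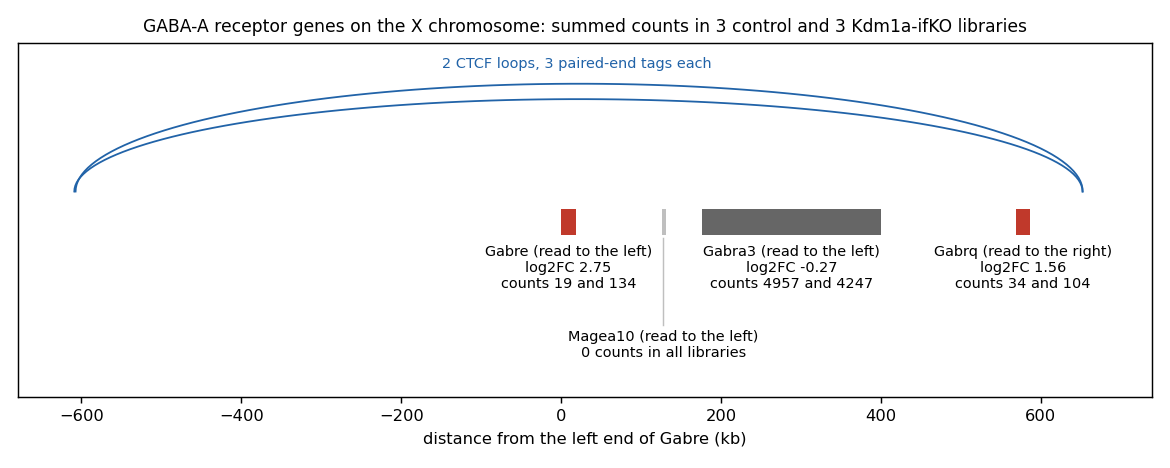
Protein-coding genes of the X-linked GABA-A receptor stretch, drawn to scale along the distance in kb from the left end of Gabre, with the log2FC and the summed counts of the 3 control and the 3 Kdm1a-ifKO libraries under each gene. Red bars are Gabre and Gabrq, which rose; the long grey bar is Gabra3 (4957 and 4247 counts), and the blue arcs are the 2 CTCF loops that span all 3 genes, whose height has no meaning.

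In the CTCF ChIA-PET of excitatory neurons with intact Kdm1a, 2 loops with 3 paired-end tags (PETs) each, the lowest number in the loop list, contained all 3 genes. Their ends lay 609.0 and 607.4 kb to the left of Gabre and 65.9 and 66.1 kb to the right of Gabrq, with anchor centres 1260.4 and 1259.1 kb apart, and 0 anchors fell inside the stretch. Loops were measured in WT nuclei alone, so nothing is known here of the same loops in Kdm1a-ifKOs.

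Across the set, 30 of the 32 genes had enough counts to be tested. Gabra6, whose subunit is typical of cerebellar granule cells, had 0, 1 and 6 counts in the controls and 1, 2 and 0 in the Kdm1a-ifKOs. Glra1, the main adult glycine receptor alpha subunit of the spinal cord and brainstem, had 1 count in all controls together and 4 in all Kdm1a-ifKOs. Of the 30, 3 rose and 4 fell at an adjusted p below 0.05, or 23.3%, where 8.85% of all 16799 tested genes were called. By direction, 10% of members rose against 6.04% of all genes, and 13.3% fell against 2.82%. Because members were chosen with earlier results of these data known, such shares describe the set and do not test it. The libraries of the 2 genotypes did not overlap for 16 members (53.3%), 5 with a higher and 11 with a lower level in Kdm1a-ifKO, and they did not overlap for 30.0% of all genes. The median log2FC was -0.13 over the members and -0.0034 over all tested genes, and 22 members had a value below 0. The 3 that rose were all GABA-A receptor subunits (Gabre, Gabrq and Gabrd), and the 4 that fell were 2 glycine receptor subunits (Glra2 and Glrb) and 2 interneuron peptides (Vip and Npy). Without control replicate 3 and Kdm1a-ifKO replicate 2 the numbers were 3 and 7, where 6.17% of all genes rose and 3.32% fell. The number that fell was 1 when Kdm1a-ifKO replicate 3 was left out, with Npy remaining. It was 2 (Glrb and Npy) when Kdm1a-ifKO replicate 1 was left out. The share of all genes that fell also dropped in these fits, to 0.801% and 0.958%.

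**Figure D2:**
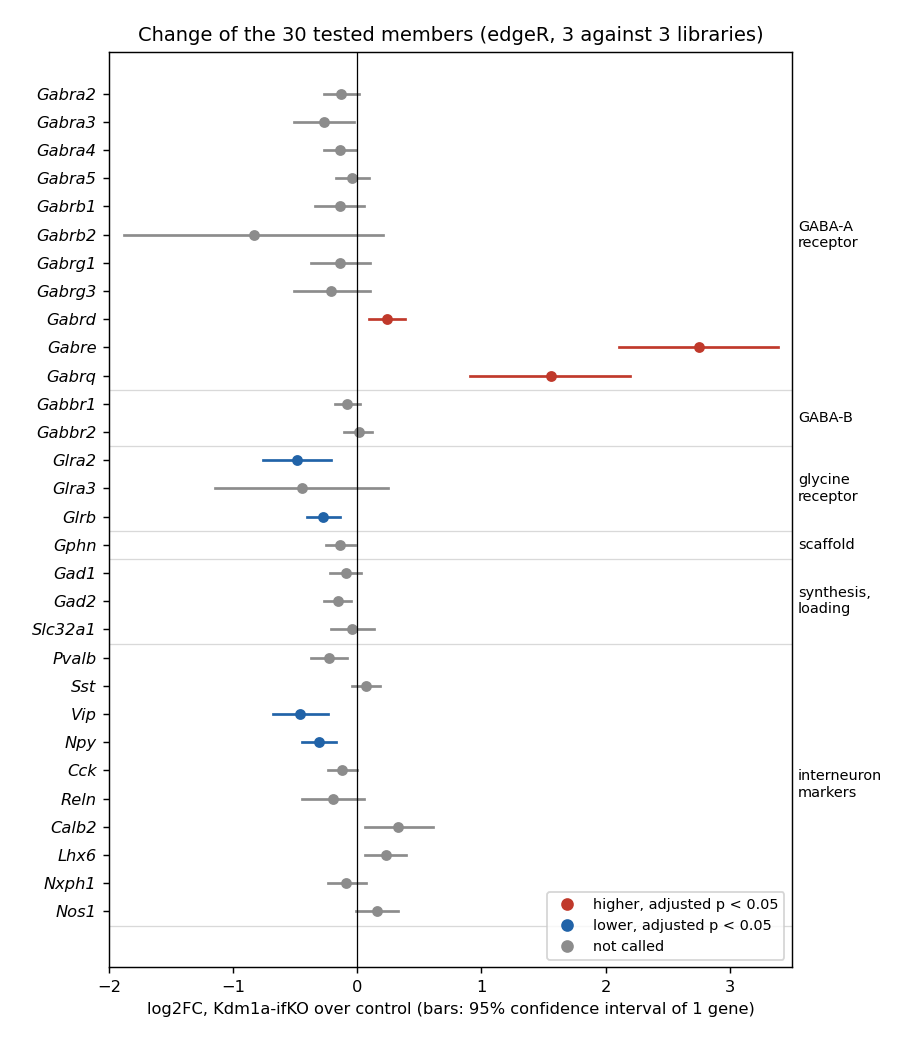
Log2FC of Kdm1a-ifKO over control for the 30 tested members, grouped by role, with the 95% confidence interval of each gene (horizontal axis in log2 units). Red points rose and blue points fell at an adjusted p below 0.05; Gabre at 2.75 and Gabrq at 1.56 lie far to the right, while most of the grey points lie between -0.3 and 0.

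The last GABA-A subunit gene that rose was Gabrd, for the delta subunit of extrasynaptic receptors, which is abundant in dentate granule cells. It had 30.2, 29.2 and 26.7 CPM in the controls and 34.0, 34.1 and 33.4 CPM in the Kdm1a-ifKOs. The 3 Kdm1a-ifKO libraries were nearly equal and all above the controls. The rise was small (log2FC 0.24 ± 0.068, adjusted p = 0.0457) and near the threshold: the adjusted p was 0.112 with DESeq2, 0.149 without the libraries that stood apart and 0.266 after a correction for GC content and gene length. Of 5 dentate granule cell markers, C1ql2 rose (log2FC 0.55, adjusted p = 0.0264). Prox1, Tdo2, Lct and Dsp had a log2FC of -0.05, 0.05, 0.14 and 0.31 and were not called. The 5 summed to 285 to 314 CPM in the controls and 324 to 381 CPM in the Kdm1a-ifKOs. C1ql2 was called in 3 of the 6 fits with a library left out and not after the GC and length correction (0.27, adjusted p = 0.118). The part of these genes in the value of Gabrd was not tested.

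The other 8 tested GABA-A subunit genes all had a log2FC below 0 and did not pass the test. They include the alpha subunits that bind GABA together with a beta subunit (Gabra2, Gabra3, Gabra4, Gabra5), the beta subunits Gabrb1 and Gabrb2, and the gamma subunits Gabrg1 and Gabrg3. Gabra5, for the alpha 5 subunit that is enriched in the hippocampus, was the highest of the GABA-A members in the controls at 272 ± 9.27 TPM (SD, n = 3) and had 267 ± 18.7 TPM in the Kdm1a-ifKOs. Its log2FC of -0.04 had a 95% confidence interval of -0.17 to 0.09. Gabra4 had 103, 102 and 114 CPM in the controls and 99.4, 97.1 and 92.1 CPM in the Kdm1a-ifKOs, a small difference without overlap (adjusted p = 0.157). Gabra2, Gabra4, Gabrb1 and Gabrg1, neighbours on chromosome 5, had values of -0.13, -0.14, -0.14 and -0.14, and Gabrg3 on chromosome 7 had -0.21. Without control replicate 3 the 4 neighbours had -0.06, -0.09, -0.02 and -0.06, and after the GC and length correction Gabra2, Gabrb1 and Gabrg1 had values above 0 (0.06, 0.05 and 0.09).

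Gabrb2 (beta 2 subunit) had the lowest fitted value, -0.83, but also the widest spread. The controls had 48.2, 44.6 and 90.7 CPM and the Kdm1a-ifKOs 32.8, 43.4 and 26.6 CPM. Control replicate 3 was far above the other controls, and Kdm1a-ifKO replicate 2 was just below them. The adjusted p was 0.291 (95% confidence interval -1.88 to 0.21). Without those 2 libraries the log2FC was -0.64 and the adjusted p 0.000269, a setting in which 6.17% of all genes rose and 3.32% fell. Gabrb2 was called in 1 of the 15 alternative fits. Erbb4, the neuregulin receptor of interneurons, was also highest in control replicate 3 and lowest in Kdm1a-ifKO replicate 3, with 44.9, 49.6 and 65.3 CPM in the controls and 39.5, 44.6 and 33.5 CPM in the Kdm1a-ifKOs (log2FC -0.44, adjusted p = 0.174).

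In order of control level per exon length, the GABA-A members ran from Gabra5 (272 TPM) through Gabra2 (114), Gabra3 (88.4), Gabra4 (69.3), Gabrb1 (56.7), Gabrd (39.7) and Gabrb2 (38.2 TPM) to Gabrg1 (11.2) and Gabrg3 (6.89), and then to Gabrq, Gabre and Gabra6, all below 1 TPM. Each lay above the next in every control library except for Gabrd against Gabrb2 and Gabre against Gabra6, whose ranges overlapped. The 2 genes with wide rises were the lowest of the tested GABA-A members in control tissue. Both had enough counts to be tested with the help of their Kdm1a-ifKO libraries, while Gabra6, low in both genotypes, was not tested. A low control level among the genes that rose therefore follows in part from the filter on counts.

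**Figure D3:**
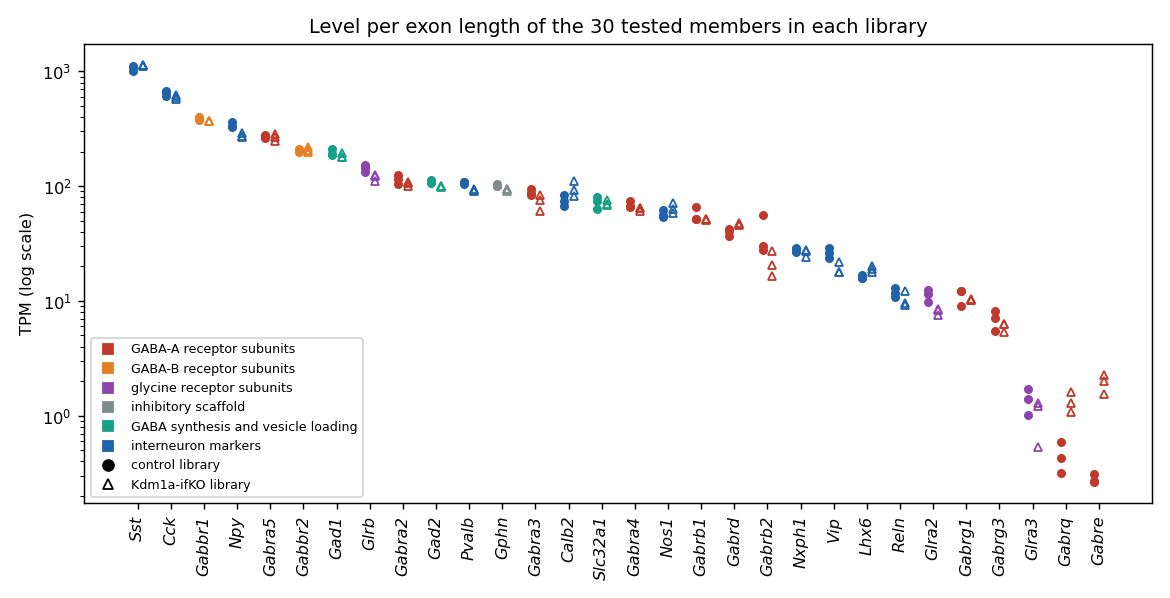
Level of the 30 tested members in TPM, which is per exon length, on a log axis, ordered by the control mean; filled circles are control libraries, open triangles Kdm1a-ifKO libraries and colours the roles. Levels run from Sst at a control mean of 1080 TPM down to Gabrq and Gabre at 0.444 and 0.281 TPM, and at these 2 the triangles stand well above the circles.

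Neither gene of the metabotropic GABA-B receptor was called. Gabbr1, which binds GABA, had 773, 765 and 744 CPM in the controls and 722, 713 and 723 CPM in the Kdm1a-ifKOs. The groups did not overlap, but the log2FC was -0.08 (95% confidence interval -0.18 to 0.02, adjusted p = 0.304). Gabbr2, which brings the dimer to the surface and couples it to G proteins, had 0.01 (-0.11 to 0.12).

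Of the 3 tested glycine receptor genes 2 fell, where 2.82% of all tested genes did, and the other had a value below 0. Glrb, for the beta subunit that binds gephyrin, is by far the most abundant of them in this tissue, at 144 ± 9.84 TPM in the controls. It had 157, 170 and 181 CPM in the controls and 143, 145 and 131 CPM in the Kdm1a-ifKOs, with no overlap, and fell by 0.28 on the log2 scale (SE 0.063, adjusted p = 0.0152). Glra2, the alpha 2 subunit of early postnatal and extrasynaptic receptors, had 9.1, 9.92 and 7.79 CPM in the controls and 6.58, 6.6 and 5.96 CPM in the Kdm1a-ifKOs. It fell by 0.49 (SE 0.127, adjusted p = 0.031), and the groups did not overlap. Glra3 had 45, 76 and 60 counts against 55, 58 and 24, which overlap (log2FC -0.45, 95% confidence interval -1.15 to 0.25, adjusted p = 0.422). The call of Glra2 was the less stable: its adjusted p rose to 0.119 without Kdm1a-ifKO replicate 3, where that of Glrb was 0.0808, and 5 of the 6 fits with a library left out did not call Glra2.

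Gphn, the scaffold shared by both receptor families, had 93.8, 99.1 and 94.5 CPM in the controls and 88.8, 84.5 and 88.4 CPM in the Kdm1a-ifKOs. Its libraries did not overlap, but the log2FC of -0.14 did not pass the test (95% confidence interval -0.25 to -0.02, adjusted p = 0.129). Over the 16 tested receptor subunits, 3 rose (18.8%, against 6.04% of all genes) and 2 fell (12.5%, against 2.82%). A log2FC below 0 was found for 12 of them, with a median of -0.14, and for 8548 of all 16799 tested genes.

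The genes that define GABAergic cells as a whole did not pass the test, and 1 of the 3 had an unadjusted p below 0.05. Gad1, the main GABA-synthesizing enzyme, had 363, 404 and 362 CPM in the controls and 376, 339 and 344 CPM in the Kdm1a-ifKOs (log2FC -0.09, 95% confidence interval -0.22 to 0.03, adjusted p = 0.363). Slc32a1, the vesicular GABA transporter, had 52, 56.2 and 44.9 CPM against 48, 52.1 and 49.1 CPM (log2FC -0.04, -0.21 to 0.13, adjusted p = 0.814), but with the GC and length correction it was -0.29 and passed (adjusted p = 0.00539). In both the groups overlapped. Gad2, the enzyme form tied to nerve terminals, had 158, 165 and 168 CPM in the controls and 146, 146 and 148 CPM in the Kdm1a-ifKOs. The groups did not overlap and the log2FC was -0.16, with an adjusted p of 0.0599. These 3 genes were detected at 72.5 to 196 TPM in control tissue. The share of RNA that came from interneurons was not measured.

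Among the 10 interneuron markers 2 peptides fell (20%, against 2.82% of all genes) and none rose, 6 had an unadjusted p below 0.05 (24.5% of all tested genes did), and the median log2FC was -0.1. Npy, neuropeptide Y of neurogliaform, ivy and many somatostatin cells, had 51.3, 46.4 and 47.8 CPM in the controls and 41.4, 37.5 and 38.8 CPM in the Kdm1a-ifKOs. The groups were well apart, and Npy fell by 0.31 (SE 0.065, adjusted p = 0.0106). Vip, the peptide of interneurons that mostly contact other interneurons, had 24.5, 22.5 and 20.2 CPM in the controls and 15.1, 18.5 and 15.1 CPM in the Kdm1a-ifKOs. It fell by 0.46 (SE 0.101, adjusted p = 0.0122), and its Kdm1a-ifKO replicate 2 lay nearest to the controls. Of the called members, Npy, Gabre and Gabrq were called in all 6 fits with a library left out. Vip lost its call without Kdm1a-ifKO replicate 1 (adjusted p = 0.063) and after the GC and length correction (0.115).

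**Figure D4:**
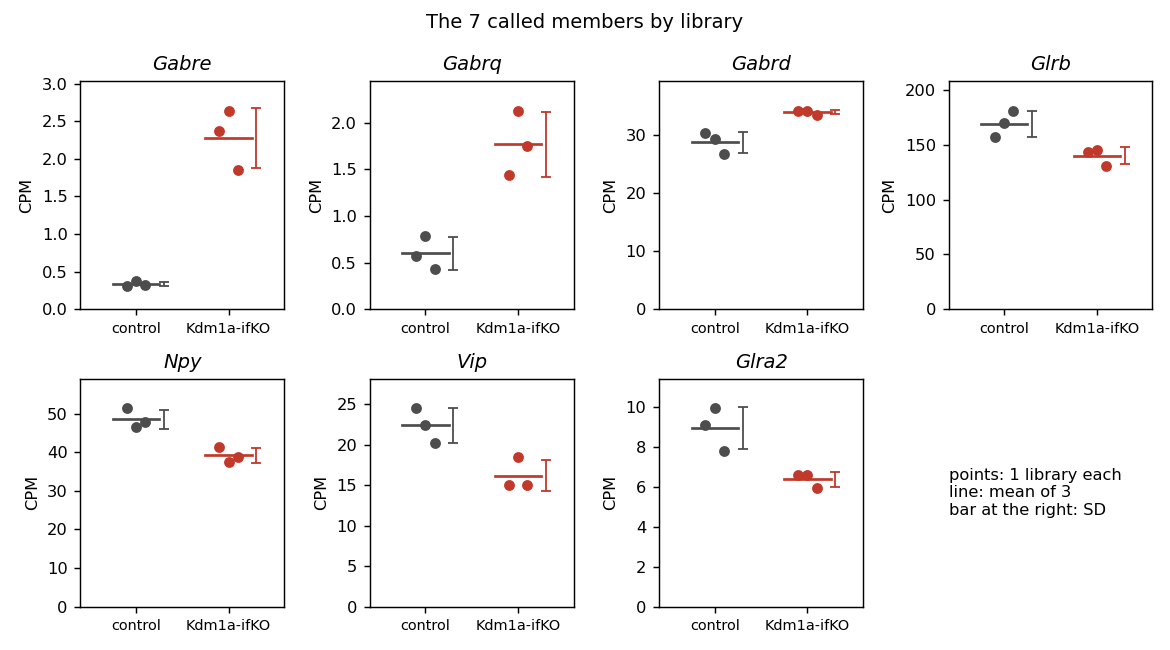
CPM of the 7 called members in each library, with axes that start at 0; points are libraries, horizontal lines the means of 3 and the bars at the right the SD. For every gene shown all Kdm1a-ifKO libraries lie on the same side of all control libraries, with means of 0.335 and 2.28 CPM for Gabre and of 48.5 and 39.2 CPM for Npy.

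The other 8 markers were not called, and their values lay on both sides of 0. Sst, the somatostatin gene and the highest member at 1080 ± 55.2 TPM in the controls, had 198, 203 and 185 CPM there and 206, 205 and 204 CPM in the Kdm1a-ifKOs. The groups did not overlap, though by a few CPM, and the log2FC was 0.07 (95% confidence interval -0.04 to 0.18, adjusted p = 0.447). Pvalb, the calcium buffer of fast-spiking basket cells, had 28.4, 27.1 and 28.7 CPM against 23.7, 24.2 and 24.2 CPM. These groups did not overlap, and the adjusted p of 0.0529 was just above the threshold (log2FC -0.23). Lhx6, the transcription factor of interneurons from the medial ganglionic eminence, which include the Sst and Pvalb classes, had 19, 20.2 and 19.1 CPM against 24.2, 22.7 and 21.4 CPM. Here the Kdm1a-ifKO libraries were all higher (log2FC 0.23, adjusted p = 0.0866).

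Calb2 (calretinin, also made by mossy cells and immature granule cells) had 32.2, 36.9 and 29.6 CPM against 40.5, 35.3 and 48.3 CPM, with a log2FC of 0.33 and an adjusted p of 0.134. Reln, the extracellular protein of Cajal-Retzius cells and of some interneurons, had 69.3, 65.1 and 77.4 CPM against 57.5, 72.4 and 54.8 CPM (log2FC -0.2, adjusted p = 0.315). In both, Kdm1a-ifKO replicate 2 lay among the controls. Without it and control replicate 3, Calb2 passed the test (log2FC 0.37, adjusted p = 0.0197) and so did Reln (-0.26, 0.0157). In that fit 6.17% of all genes rose and 3.32% fell. Since it leaves out the library that lay among the controls, it is no separate support for either gene. Each was called in 3 of the 15 alternative fits. Of 3 mossy cell markers none was called. Drd2 had a log2FC of 0.6 without overlap (adjusted p = 0.129), while Csf2rb2 and Ociad2 had -0.2 and -0.02, with overlap. Of 3 Cajal-Retzius cell markers only Trp73 could be tested, and it was not called. The lists, of which Ociad2 makes up most of the first, summed to 130 to 143 and 5.27 to 7.79 CPM in the controls and to 126 to 138 and 6.68 to 9.44 CPM in the Kdm1a-ifKOs, and their part in the values of Calb2 and Reln was not tested. Cck, which principal neurons also transcribe, Nos1 and Nxph1 had a log2FC of -0.12, 0.16 and -0.09 and adjusted p values of 0.199, 0.226 and 0.499.

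**Figure D5:**
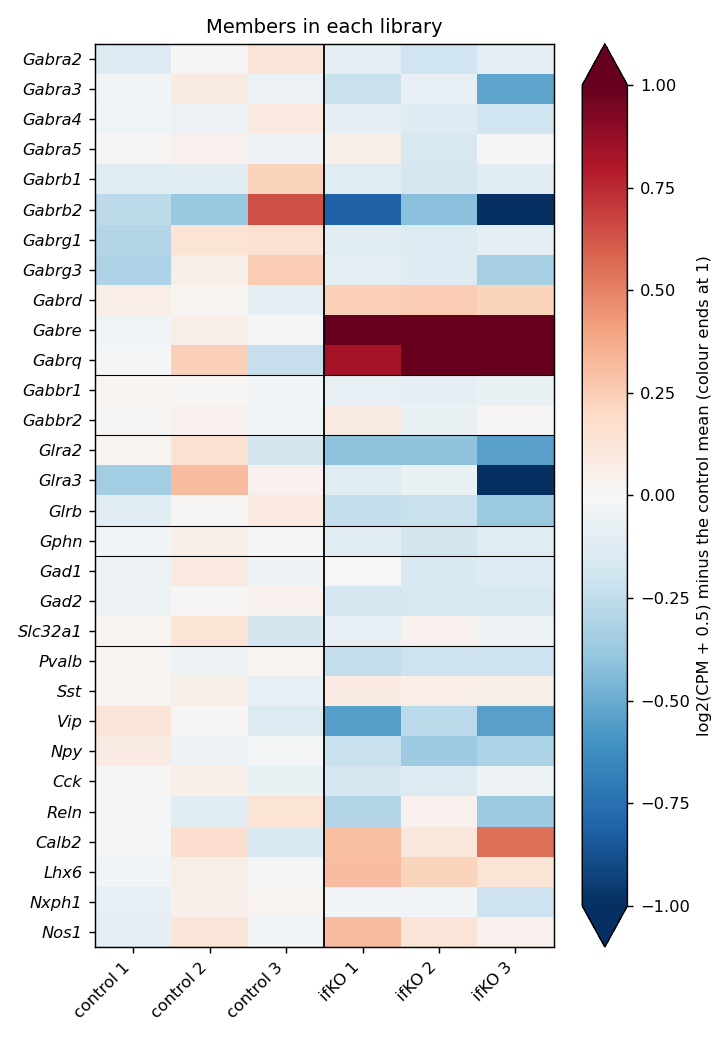
Difference of log2(CPM + 0.5) from the mean of the 3 controls for each tested member (rows, grouped by role) in each library (columns); red is above and blue below the control mean, and colours end at 1. Gabre and Gabrq are red in all 3 Kdm1a-ifKO libraries, Gabrb2 is red in control 3 alone, and Glrb, Glra2, Vip and Npy are blue in all 3 Kdm1a-ifKO libraries.

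A list of 29 further genes for interneuron identity, transmission and peptides had 2 that rose and 3 that fell among 28 tested (17.9%, against 8.85% of all genes), with a median log2FC of 0. Npas1, a transcription factor that restrains interneuron production and marks cells from the caudal ganglionic eminence, had 17.4, 16.6 and 15.8 CPM in the controls and 32.3, 25.5 and 32 CPM in the Kdm1a-ifKOs (log2FC 0.85 ± 0.096, adjusted p = 9.6e-05). It was called in all 15 alternative fits. Penk, the enkephalin precursor, had 26.6, 22.9 and 22 CPM against 35.4, 28.8 and 33.8 CPM (log2FC 0.45, adjusted p = 0.0101). Those that fell were Cort, the cortistatin gene (8.37, 7.46 and 7.31 CPM against 4.99, 5.23 and 5.9; log2FC -0.52, adjusted p = 0.0247), Crhbp, which binds corticotropin-releasing hormone (32.7, 35.2 and 34 CPM against 27.1, 29.3 and 23.3; -0.35, 0.019), and Kcnc2, a fast potassium channel subunit (122, 131 and 137 CPM against 113, 114 and 104; -0.24, 0.025). The 5 genes were among 11 of the list (39.3%) that did not overlap between genotypes, against 30.0% of all genes. The number called was 1 without Kdm1a-ifKO replicate 1 and 2 without Kdm1a-ifKO replicate 3 or control replicate 2. In those fits, in that order, 4.29%, 3.78% and 4.31% of all genes rose and 0.958%, 0.801% and 2.13% fell. Dlx1, Dlx2, Dlx5 and Dlx6, transcription factors of interneuron development, had a log2FC of 0.05, 0.15, -0.24 and 0 and were not called. The groups did not overlap for Dlx2 and Dlx5. Nearest to the threshold among the genes not called were Tac1 (log2FC -0.5, adjusted p = 0.0618) and Cnr1 (-0.18, 0.0675). None of Htr3a, Lamp5 and Ndnf, markers of caudally derived and neurogliaform cells, was called either.

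Of 29 genes for inhibitory synapse proteins and GABA handling, 25 were tested, 0 were called by edgeR and 4 had an unadjusted p below 0.05, with a median log2FC of -0.02. Over all tested genes 8.85% were called and 24.5% had such an unadjusted p. DESeq2 called 0 of the list, and edgeR with the GC and length correction called 4, all lower. The nearest to the threshold were Slitrk3, a postsynaptic adhesion protein of inhibitory synapses (106, 116 and 123 CPM against 106, 97 and 95.8; log2FC -0.21, adjusted p = 0.0573), and Slc6a11, an astrocytic GABA transporter (174, 175 and 164 CPM against 186, 198 and 189; 0.16, 0.0782). For Slc12a5, the chloride exporter that makes GABA hyperpolarizing, and for Nlgn2, the adhesion protein of inhibitory synapses, the 95% confidence intervals were -0.11 to 0.1 and -0.15 to 0.11.

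Markers of other cells moved beside these results, and over all tested genes 6.04% rose and 2.82% fell. Of 8 microglial markers 4 rose (Cx3cr1, Tmem119, Csf1r and C1qb), and the list summed to 406 to 444 CPM in the controls and 466 to 606 CPM in the Kdm1a-ifKOs. Of 8 astrocyte markers 3 rose (Slc1a3, S100b and Aldoc), with sums of 5470 to 6090 and 6120 to 6450 CPM. Each of these 7 glial calls was lost in at least 2 of the 6 fits with a library left out. Every gene of both lists had a log2FC above 0, as had 8251 of all 16799 tested genes. Of 7 excitatory neuron markers 1 fell (Neurod6, log2FC -0.36, adjusted p = 0.00419), and the sums overlapped at 7380 to 7850 and 7220 to 8000 CPM. Of the hippocampal subfield genes, 1 of 3 CA2 genes rose (Map3k15, log2FC 1.7), and 1 of 4 CA3 genes fell (Nectin3, -0.76). Iyd, Grik4 and Bok of the CA3 list had -0.55, 0.17 and 0.34 and were not called (adjusted p = 0.059, 0.0797 and 0.112). The CA3 genes summed to 195 to 208 CPM in the controls and 193 to 226 CPM in the Kdm1a-ifKOs. None of 3 CA1 genes was called. No marker of oligodendrocytes, their precursors, endothelial cells, ependyma or cerebellar granule cells was called. In other brain regions' lists, the thalamic genes split, with Prkcd higher (log2FC 0.57) and Slc17a6 lower (-1.09), while Ppp1r1b of striatum rose (0.39) and the 7 striatal genes summed to 66 to 68.8 and 77 to 85.6 CPM. Choroid plexus markers summed to 9.89 to 37.4 CPM in the controls and 5.04 to 12.7 CPM in the Kdm1a-ifKOs, and none of the list was called. The part of these shifts in the members' values was not tested.

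CTCF loop anchors lay within 10 kb of the gene body of 13 of the 32 members (40.6%), against 56.9% of tested genes. With at least 10 PETs required the shares were 34.4% and 35.4%. They were near 6 of 10 interneuron markers and near 5 of 18 receptor genes, of which 2 were among the 12 GABA-A subunit genes. None of the 3 GABA-A genes that rose and neither of the glycine receptor genes that fell had such an anchor. Of the peptides that fell, Npy had none and Vip had 4 loops, the strongest of 33 PETs. Sst, which did not pass the test, had 3 loops with up to 116 PETs, Slc32a1 had 1 loop of 313 PETs, and Glra1, close to silent in every library, had 10 loops with up to 28 PETs. Gabrd lay inside 2 loops, the shorter of 40.1 kb, with up to 10 PETs. Since the ChIA-PET nuclei came from excitatory neurons, these loops describe interneuron genes in cells that do not mainly transcribe them.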

How the data were processed

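Poly-A RNA libraries of 3 mice per genotype were single-end sequenced. The authors trimmed reads with cutadapt 1.18, aligned them with HISAT2 2.1.0 to mm10 and counted reads per gene with HTSeq 0.11.1; the strand setting is not given in the sources used here, so overlapping genes (16 of the 32 members have one) may share reads. The deposited values are raw counts for 48795 Ensembl genes. Symbols, positions and exon lengths came from GENCODE M21, with 1 list gene matched through an older symbol; CPM (TMM-scaled) and TPM were computed here. All 16799 genes kept by edgeR's filterByExpr were fitted together with edgeR 4.0.16 (TMM, quasi-likelihood test, Benjamini-Hochberg adjustment), and a call is an adjusted p below 0.05. Confidence intervals are per gene. An exact permutation test of 3 against 3 libraries cannot go below p = 0.1. Each of the 7 called members reached that value, which adds no support, since none of them overlapped between genotypes. Every member was named, with values per library where it was called or the groups did not overlap; list genes were named when called, and list genes that were not called were chosen after their values were seen. Members and lists were chosen with earlier results of these data known, and some list genes are not reported here. Alternatives were DESeq2 1.42.0, other scalings and filters, a GC and length correction, a replicate block and left-out libraries. The deposited ChIA-PET file lists CTCF loops with counts of paired-end tags, from 1 library, called by the authors with ChIA-PIPE on mm10; an anchor counted as near when it lay at most 10 kb from the gene body, and containing loops were limited to spans of 2 Mb.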

Additional observations from a re-analysis of the deposited data

How the results depend on the processing

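Gabre, Gabrq and Npy were called in all 15 alternative fits, Glrb in 13, Vip in 11, Glra2 in 7 and Gabrd in 4; the cause of the lost calls was not tested. The number of members that rose was 3 and lay between 2 and 4 over the alternatives, and between 2 and 3 with 1 library left out. The number that fell was 4. It was 7 without both libraries that stood apart (control replicate 3, Kdm1a-ifKO replicate 2) and 0 with a log2FC beyond 0.5 also required. With 1 library left out it lay between 1 and 5, with 1 without Kdm1a-ifKO replicate 3 and 2 without Kdm1a-ifKO replicate 1. Over all genes, 3.32% fell without both libraries that stood apart, 0.801% without Kdm1a-ifKO replicate 3 and 0.958% without Kdm1a-ifKO replicate 1. After the GC and length correction, Cck (log2FC -0.27), Slc32a1 (-0.29) and Pvalb (-0.26) passed the test, and over all genes the calls went from 6.04% higher and 2.82% lower to 5.3% and 5.85%. The median log2FC of receptor genes, -0.14, was -0.06 with that correction, -0.07 without the 2 libraries that stood apart and between -0.2 and -0.07 with 1 library left out; that of interneuron markers stayed between -0.12 and -0.08.

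The 5 calls among other interneuron genes became 8 with no filter on low counts and between 1 and 5 with 1 library left out (1 without Kdm1a-ifKO replicate 1, 2 when Kdm1a-ifKO replicate 3 or control replicate 2 was dropped). The 0 calls among inhibitory synapse and GABA handling genes became 1 with no filter on low counts and without both libraries that stood apart, 4 with the GC and length correction, and between 0 and 1 with 1 library left out. Members with a loop anchor numbered 8 when the anchor had to overlap the gene body (25% against 39.5% of tested genes), 15 within 25 kb (46.9% against 68.5%), 12 with at least 5 PETs (37.5% against 48.3%) and 11 with at least 10 PETs (34.4% against 35.4%).

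Values near 0 changed sign without passing the test. With the GC and length correction, alone or with the replicate block, Gabra2 was at 0.06 in both, Gabrb1 at 0.05 in both, Gabrg1 at 0.09 and 0.1, Gabbr2 at -0.1 in both and Sst at -0.05 in both. Gabrb1 was at 0 without both libraries that stood apart. With 1 library left out, Gabra5 ran from -0.09 to 0.02, Slc32a1 from -0.12 to 0.03 and Gabbr2 from -0.03 to 0.05.

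Correlations of same-numbered deviations were -0.0326, -0.0911 and -0.1481, and those of the other pairs lay between -0.0918 and 0.1618. Deviations were taken from the mean of 3 libraries per group, which constrains these values. They therefore cannot show whether replicate numbers pair the libraries. With the replicate block, 2 members rose and 5 fell, 3 other interneuron genes were called, and with the block and the GC and length correction 4 inhibitory synapse and GABA handling genes were called and the receptor median was -0.06. With 3 mice per genotype, a member that was not called is not shown to be equal between genotypes.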
